A study of Arabidopsis thaliana with 24 samples.

Results

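Untreated shoots were compared with untreated roots of Arabidopsis thaliana seedlings in 6 of the 24 libraries of a series, 3 per organ, chosen by their labels alone. RNA was counted by MARS-seq, which reads the 3' ends of transcripts. Both groups were wild type of the Columbia-0 accession, 7 days old, and had stood in water for 1 h before the organs were parted. The plants had grown at 21 °C with a day of 16 h light and a night of 8 h on agar that held 1% sucrose, so an external sugar is shared by both groups. Each library pooled RNA of 30 to 50 seedlings, and where the cut between root and shoot was placed is not given in the sources used here. The sample titles code these libraries as time 0, while the source and treatment labels give 1 h in water. The other 18 libraries come from seedlings treated with salicylhydroxamic acid (SHAM), an inhibitor of the mitochondrial alternative oxidase. The treatment protocol also names polyethylene glycol, an osmotic agent, where the sample labels name SHAM alone. These libraries serve here to set the spread between replicates and to show the organ difference in treated plants. All 16183 genes of the count table are members, of which 11704 passed the filter on low counts and were tested. The comparison asks which genes make up the baseline programme of each organ.

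Shoots of a young seedling hold green cotyledons and the first leaves. Their chloroplasts capture light with antenna proteins, move electrons through the photosystems and fix carbon with Rubisco, and their epidermis carries stomata and a waxy cuticle. Roots take up water and ions through root hairs and transporters, and seal their central cylinder with the Casparian strip and suberin of the endodermis. Several steps of nitrogen assimilation and of electron supply are known to run through different isoforms in leaves and in roots.

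Shoot libraries held 1348319, 1551009 and 3622300 counts and root libraries 1891601, 862731 and 1883347. Roots spread their counts over more genes. After thinning every library to 862731 counts, 14624 to 14907 genes had a count in roots and 12124 to 12994 in shoots, and 50% of all counts came from 335 to 355 genes in roots but from 90 to 130 in shoots. Values per gene are given as CPM after TMM scaling (TMM-scaled CPM, a share of the scaled library), which sets the organs on a common scale by the genes that differ least. Pearson's r of log2 levels was 0.933 to 0.972 between root libraries, 0.927 to 0.953 between shoot libraries and 0.485 to 0.572 between organs. Counts of replicates differed by more than sampling noise, so no library was counted as a repeat of another.

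Photosynthesis set the shoot libraries apart. The antenna, photosystem, carbon fixation and photorespiration lists, 76 genes in all, took 32.0, 35.4 and 31.9% of counts in the shoot libraries and 0.341, 0.379 and 0.414% in the root libraries. These root shares were 1.03 to 1.25% of the mean shoot share. Markers of root tissue differed the other way. The 19 root hair genes took 0.0974 ± 0.0176% (mean ± SD, n = 3) of counts in roots and 0.00289 ± 0.000862% in shoots, where 9 of them had no count. The 9 Casparian strip genes took 0.173 ± 0.0227% in roots and 0.00450 ± 0.00138% in shoots. The tissue labels therefore matched the defining markers in all 6 libraries. In libraries of a whole organ, fewer cells of a type and less RNA per cell cannot be told apart.

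**Figure D1:**
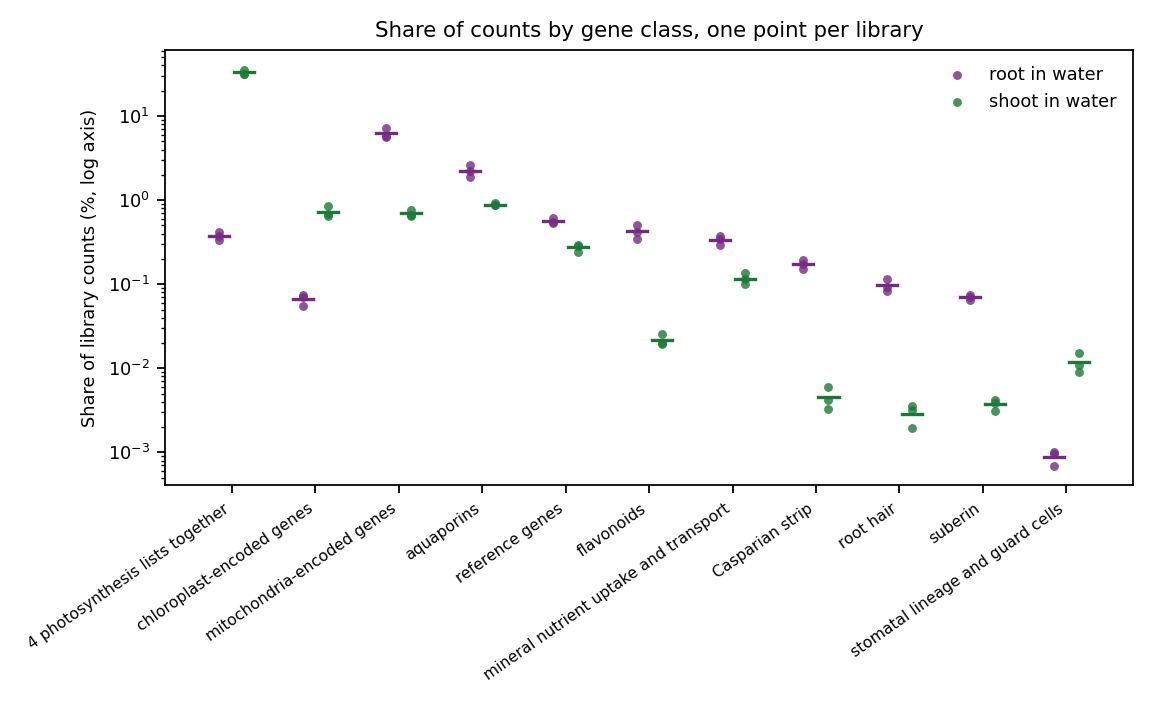
Share of library counts (%, log axis) taken by 11 gene classes in roots (purple) and shoots (green) in water. Each point is 1 library and each bar the mean of 3. The photosynthesis lists lie at 31.9 to 35.4% in shoots against 0.341 to 0.414% in roots, and the root hair, Casparian strip and suberin lists lie higher in roots.

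Chloroplast-encoded genes were higher in shoots. Of 48 chloroplast-encoded genes tested, 44 were higher in shoots and 0 in roots by edgeR, and 40 of the 44 were so under each of the 4 scalings described next. Chloroplast-encoded genes took 0.729 ± 0.104% of counts in shoots and 0.0669 ± 0.0108% in roots. Of 15 mitochondria-encoded genes tested, 6 were higher in roots, 1 of them held, and 9 were not called, and their median of -0.89 became 0.15 with reference gene scaling. Mitochondria-encoded genes took 0.694 ± 0.0602% in shoots and 6.25 ± 0.837% in roots, of which the single locus ATMG00020 took 0.651 ± 0.0508% and 5.85 ± 0.798%. The class share thus follows this locus, which has no product text in the annotation used here, and does not describe mitochondria-encoded genes in general. How well an assay of 3' ends measures organelle-encoded transcripts was not tested, so values of both organelle classes are read as counts and not as transcript levels. ATMG00020 stood at 42072, 32774 and 34474 TMM-scaled CPM in roots and at 9061, 8549.5 and 8008 in shoots. All root libraries lay above all shoot libraries, with a log2 difference of -2.09 ± 0.39 (shoot minus root, ± SE), but with reference gene scaling the difference of -1.08 was not called.

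Of the 11704 genes tested, 2941 were higher in shoots (25.1%) and 2934 higher in roots (25.1%), 50.2% in all, at an adjusted p under 0.05 in edgeR's quasi-likelihood test. The median log2 difference over all genes was -0.12. By fitted difference 1730 genes were at least 4-fold higher in shoots and 1864 in roots, and 158 and 35 at least 256-fold. Fitted values of the 123 shoot and 191 root calls with no count in the other organ depend on the prior count of the fit. The split depends on how the organs are scaled. Scaling by library size alone moved the median log2 difference by -1.06 and called 1694 genes higher in shoots (14.5%) and 6371 in roots (54.4%). Median-ratio size factors moved it by -0.19 and called 2647 (22.6%) and 3454 (29.5%). Size factors from 15 reference genes, added after the data were seen, moved it by 1.05 and called 4549 (38.9%) and 1173 (10%). Calls present under all 4 scalings numbered 1694 for shoots (14.5%) and 1173 for roots (10%), and genes with such a call are described here as held. The held shoot genes were exactly those called with library size alone, and the held root genes those called with reference gene scaling. Being held thus means a call under the least favourable scaling, to which the others add no support. Counts of called and held members of each list are to be read against these shares of all genes. In 62.0% of the genes tested the libraries of the organs did not overlap.

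**Figure D2:**
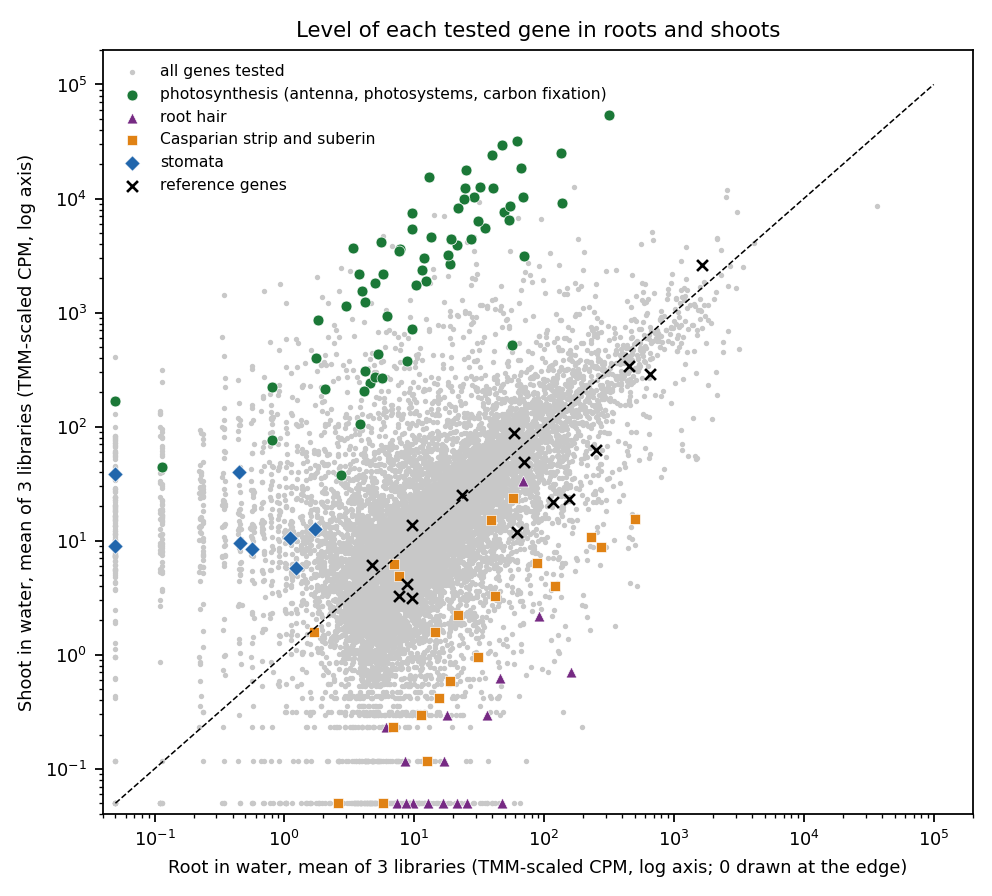
Mean level in shoots against mean level in roots (TMM-scaled CPM, log axes, 3 libraries each) for all 11704 genes tested, in grey, with members of 8 lists marked. The dashed line marks equal levels and values of 0 are drawn at the edge. Photosynthesis genes lie above the line, with PSBR at the top, root hair and endodermal barrier genes mostly lie below it, and reference genes lie on both sides of it.

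Genes of the photosynthetic apparatus had the most counts in shoots. PSBR (AT1G79040), a subunit of photosystem II, stood at 60849.8, 63381 and 37558 TMM-scaled CPM in shoots and at 282, 327 and 344 in roots. It alone took 4.77, 4.58 and 2.94% of counts in the shoot libraries. Shoot replicate 3 was the lowest of its group and still lay far above every root library. RBCS1A (AT1G67090), a small subunit of Rubisco, stood at 21027, 32523 and 34539.8 in shoots and at 40.4, 38.0 and 64.9 in roots. LHCB1.3 (AT1G29930), a main antenna protein of photosystem II, stood at 33472, 37096 and 26032 in shoots and at 41.7, 54.9 and 90.4 in roots. The organs did not overlap in any of these genes. The log2 differences were 7.41 ± 0.77 for PSBR, 9.26 ± 1.26 for RBCS1A and 9.01 ± 1.27 for LHCB1.3 (adjusted p = 2.5e-08, 1.4e-06 and 2.5e-06). LHCB1.5 (AT2G34420), RBCS3B (AT5G38410) and the plastocyanin gene DRT112 (AT1G20340) completed the 6 genes with the highest counts in shoots among those at least 4-fold apart. Members of the LHCB1 and RBCS families are near-identical copies, so counts can be shared among them and their single values are uncertain.

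All 20 antenna genes, all 26 genes of photosystems and electron transport and all 18 genes of carbon fixation were called higher in shoots and held, against 14.5% of all genes. Their median log2 differences were 7.29, 7.68 and 8.62. Within the antenna the differences ran from 5.64 for LHCB2.3 (AT3G27690) to a gene without any root count. LHCA6 (AT1G19150), an antenna protein that links photosystem I to the chloroplast NADH dehydrogenase-like complex, had 897 counts in shoots and 0 in roots, and was at least 442-fold higher. The highest fitted differences in the antenna after it belonged to LHCB1.4 (AT2G34430, 10.19 ± 1.44) and LHCB1.2 (AT1G29910, 9.47 ± 1.53). In the photosystem list PSAG (AT1G55670, 9.14 ± 1.09) and PSAL (AT4G12800, 8.93 ± 1.1) of photosystem I and PSBQ-2 (AT4G05180, 8.84 ± 0.96) of the oxygen-evolving complex differed most, and the ATP synthase subunit ATPC1 (AT4G04640, 4.78 ± 0.85) least. In carbon fixation CP12-2 (AT3G62410), which binds and regulates Calvin cycle enzymes, stood at 3673 ± 698 against 3.40 ± 2.66 (9.99 ± 0.90). Its homologue CP12-1 (AT2G47400) had more transcript in both organs, with 9223 ± 1586 against 137 ± 6.63 (6.07 ± 0.51). The transketolase gene TKL1 (AT3G60750) differed least in this list (3.19 ± 0.32), with 516 ± 80.3 in shoots and 56.3 ± 10.6 in roots.

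The standard errors of these genes differ with the libraries that enter the fit. Photosynthesis genes took 4.44% of counts (95% Wilson interval 4.41 to 4.47%) in root SHAM 1 h replicate 1, while the 11 remaining root libraries ranged from 0.256 to 0.755%. The median SE of the 76 photosynthesis genes was 0.94 in the fit of 24 libraries and 0.35 in a fit of the 6 water libraries alone, where PSBR differed by 7.43 ± 0.38 and RBCS1A by 9.25 ± 0.40. The part of that SHAM library in the wider errors was not tested by itself. A fit without it tested 12471 genes and called 2903 higher in shoots and 3353 in roots.

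The 8 greatest fitted differences toward shoots, among genes with a mean of at least 10 CPM, included LHCA6 and genes from outside the lists. GER3 (AT5G20630), a germin-like protein of the cell wall, had 2181 counts in shoots and 0 in roots, at 325, 422 and 481 TMM-scaled CPM, and was at least 1074-fold higher. CA2 (AT5G14740), a carbonic anhydrase, stood at 1397, 1704 and 1553 in shoots and at 0, 1.41 and 0.680 in roots (11.31 ± 1.34). NdhT (AT4G09350), a subunit of the chloroplast NADH dehydrogenase-like complex, was at least 237-fold higher, and SIG4 (AT5G13730), a sigma factor of the chloroplast RNA polymerase, at least 218-fold. The other genes were AT2G29290, annotated as a Rossmann-fold protein (at least 309-fold), AT1G23130, annotated as a polyketide cyclase-like protein (10.98 ± 1.16), and the uncharacterized AT1G78995. AT1G78995 had 1465 counts in shoots and 1 in roots, a ratio of 2165 with a 95% counting interval of 388 to 85554. That every shoot library lay above every root library was a condition for the choice of these 8 genes.

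Photorespiration recovers carbon after Rubisco has bound oxygen. Of its 12 genes, 10 were higher in shoots and held, and 0 were higher in roots, with a median of 4.87. GOX1 (AT3G14420), a glycolate oxidase of peroxisomes, stood at 2195, 2394 and 2408 in shoots and at 2.3, 4.22 and 3.06 in roots. The shoot libraries agreed closely and lay far above the roots (9.55 ± 1.2, adjusted p = 4.4e-07). HPR (AT1G68010), a hydroxypyruvate reductase, differed by 8.41 ± 0.92 and GDCH (AT2G35370), a glycine decarboxylase subunit, by 7.58 ± 1.18. The catalase CAT2 (AT4G35090), with 44.0 ± 14.1 in shoots and 43.8 ± 1.18 in roots, and the glycine decarboxylase GLDP2 (AT2G26080) were not called. CAT2 was called higher in roots with library size alone (-1.04).

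Pigment synthesis followed with smaller differences. Of 12 chlorophyll genes tested, 10 were higher in shoots, 9 of them held, with a median of 3.94. PORC (AT1G03630), a light-dependent protochlorophyllide reductase, stood at 162, 199 and 196 in shoots and at 0.657, 1.41 and 0 in roots (8.25 ± 0.92). PORB (AT4G27440, 7.25 ± 0.95), the methyltransferase CHLM (AT4G25080, 5.37 ± 0.31) and GUN4 (AT3G59400), which assists magnesium chelatase, were also among the highest. GUN4 had 52 counts in shoots and 2 in roots, a ratio of 38.4 (10.1 to 326). HEMA1 (AT1G58290), which starts the pathway, stood at 8.56 ± 4.17 in shoots and 4.79 ± 2.17 in roots and was not called. Of 9 carotenoid and isoprenoid genes, 8 were higher in shoots, 6 of them held, with a median of 2.55, led by the hydroxylases BCH1 (AT4G25700, 4.13 ± 0.30) and LUT5 (AT1G31800, 3.17 ± 0.86).

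Starch turnover belonged to shoots as well. Of 11 genes tested, 10 were higher in shoots, 8 of them held, with a median of 3.15. CT-BMY (AT4G17090), the chloroplast beta-amylase that frees maltose at night, stood at 302, 298 and 279 in shoots and at 0.657, 0.704 and 2.04 in roots (7.86 ± 0.63). ADG2 (AT5G19220) and ADG1 (AT5G48300), subunits of the enzyme that makes ADP-glucose, differed by 4.61 ± 0.80 and 3.46 ± 0.57, and SEX1 (AT1G10760), a starch-phosphorylating kinase, by 3.82 ± 0.42. Of 7 tested genes for membrane lipids, 4 were higher in shoots, 3 of them held. These held genes were the chloroplast desaturases FAD7 (AT3G11170, 3.47 ± 0.61) and FAD6 (AT4G30950, 2.72 ± 0.46) and the galactolipid synthase MGD1 (AT4G31780, 3.24 ± 0.55). FAD3 (AT2G29980), the desaturase of the endoplasmic reticulum, was higher in roots (-0.78 ± 0.31), a call absent with reference gene scaling (0.26). It was also lost when root replicate 1 or any shoot replicate was left out, at -0.61 to -0.88, and without the filter on low counts (-0.73).

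Cells of the shoot surface had their own genes. All 8 tested genes of stomata were higher in shoots, 7 of them held, with a median of 4.13, and 6 of the 12 genes in the table had no count in roots. Sparse genes can pass the filter through libraries of a single organ, so the direction of those tested is partly set by it. FMA (AT3G24140), a transcription factor that ends the divisions of guard cell precursors, stood at 32.2, 33.9 and 49.7 in shoots and was at least 105-fold higher. POLAR (AT4G31805), a protein of asymmetrically dividing precursors, was at least 23.1-fold higher, and the receptor-like TMM (AT1G80080) stood at 40.0 ± 8.79 against 0.449 ± 0.521 (6.10 ± 0.80). Of 21 cutin and wax genes, 15 were higher in shoots and 1 in roots, 13 and 1 of them held, with a median of 2.62. CUT1 (AT1G68530), which elongates wax precursors, stood at 231, 377 and 424 in shoots and at 2.3, 2.82 and 3.40 in roots (6.89 ± 0.71). CER2 (AT4G24510), another elongation factor for waxes, had 423 counts in shoots and 1 in roots, a ratio of 625 (112 to 24744). MYB16 (AT5G15310), a regulator of the cuticle, and CYP77A6 (AT3G10570), a hydroxylase of cutin monomers, were at least 33.5-fold and 27.6-fold higher. KCR1 (AT1G67730), a reductase used for every kind of very long chain fatty acid, went the other way and stood at 23.6, 50.0 and 27.2 in roots against 3.79, 4.46 and 1.76 in shoots (-3.43 ± 0.64).

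Regulators of leaf and epidermis had calls toward both organs. Of all genes tested, 25.1% were called each way, with 14.5% held in shoots and 10% in roots. Of 5 epidermal patterning genes tested, 2 were higher in shoots and 1 in roots, 2 and 0 of them held. So few genes do not set this list apart from all genes, and its median of 0.77 became -0.30 with library size alone. ATML1 (AT4G21750), which specifies epidermis in the shoot, stood at 96.6, 122 and 124 in shoots and at 1.97, 0.704 and 1.36 in roots (6.24 ± 0.54), and its relative PDF2 (AT4G04890) differed by 4.32 ± 0.65. CPC (AT2G46410), which moves between root epidermal cells and promotes the hair fate, was higher in roots (-1.96 ± 0.30), without a call under reference gene scaling. GL2 (AT1G79840), which acts in both leaf hairs and hairless root cells, stood at 5.87 ± 2.38 in shoots and 8.66 ± 2.71 in roots and was not called. Of 18 genes for shoot meristem and leaf development tested, 10 were higher in shoots and 1 in roots, 9 and 0 of them held. YAB3 (AT4G00180), a factor of the lower leaf side, stood at 42.6, 52.7 and 86.7 in shoots with 0 counts in roots and was at least 172-fold higher. Its relatives AFO (AT2G45190) and YAB5 (AT2G26580) were at least 55.7-fold and 28.6-fold higher. TCP2 (AT4G18390), which restrains cell division in leaves, had 126 counts in shoots and 3 in roots, a ratio of 62.1 (20.8 to 305). The meristem gene STM (AT1G62360) stood at 2.84, 8.03 and 9.52 in shoots and at 0, 0.704 and 0 in roots, a ratio of 57.6 (9.75 to 2334). The growth co-activator GIF (AT5G28640) was higher in roots (-1.36 ± 0.27), without a call under reference gene scaling.

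Light signalling genes were mostly higher in shoots, although the photoreceptors differed among themselves. Of 22 tested, 15 were higher in shoots and 2 in roots, 12 and 0 of them held, with a median of 2.52. PIF4 (AT2G43010), which drives growth in shade and warmth, had 117 counts in shoots and 0 in roots and was at least 57.6-fold higher. PIF7 (AT5G61270) had 126 and 1, a ratio of 186 (32.8 to 7411). GLK1 (AT2G20570) and GNC (AT5G56860), regulators of chloroplast development, stood at 58.8 ± 23.0 and 88.6 ± 9.91 in shoots against 0.567 ± 0.198 and 0.778 ± 0.690 in roots (6.62 ± 0.69 and 6.50 ± 0.54). The blue light receptors CRY1 (AT4G08920, 2.64 ± 0.28) and PHOT1 (AT3G45780, 2.79 ± 0.53) were higher in shoots. The phytochromes PHYA (AT1G09570), at 8.33 ± 1.99 in shoots and 8.08 ± 3.53 in roots, and PHYB (AT2G18790), at 20.3 ± 7.06 and 18.1 ± 4.95, were not called and their libraries overlapped. HY5 (AT5G11260), the factor that moves from shoot to root, stood at 218, 141 and 142 in shoots and at 175, 150.0 and 184 in roots. Its libraries overlapped as well (-0.03 ± 0.25, 95% interval -0.53 to 0.48), but library size alone called it higher in roots. The members higher in roots were RPT2 (AT2G30520, -1.31 ± 0.52), which acts in phototropism, and RUP2 (AT5G23730, -1.39 ± 0.33), a repressor of the ultraviolet receptor, neither of them held. The call of RPT2 was also lost without root replicate 1 or 2 or shoot replicate 2 or 3, at -0.91 to -1.31. Of 12 clock genes, 8 were higher in shoots, 4 of them held. Their largest differences were those of PRR7 (AT5G02810), PRR3 (AT5G60100, 2.99 ± 0.50), FKF1 (AT1G68050, 2.64 ± 0.30) and RVE4 (AT5G02840, 1.81 ± 0.32). PRR7 had 34 counts in shoots and 3 in roots. Library size alone turned the clock split to 4 higher in shoots and 2 in roots.

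**Figure D3:**
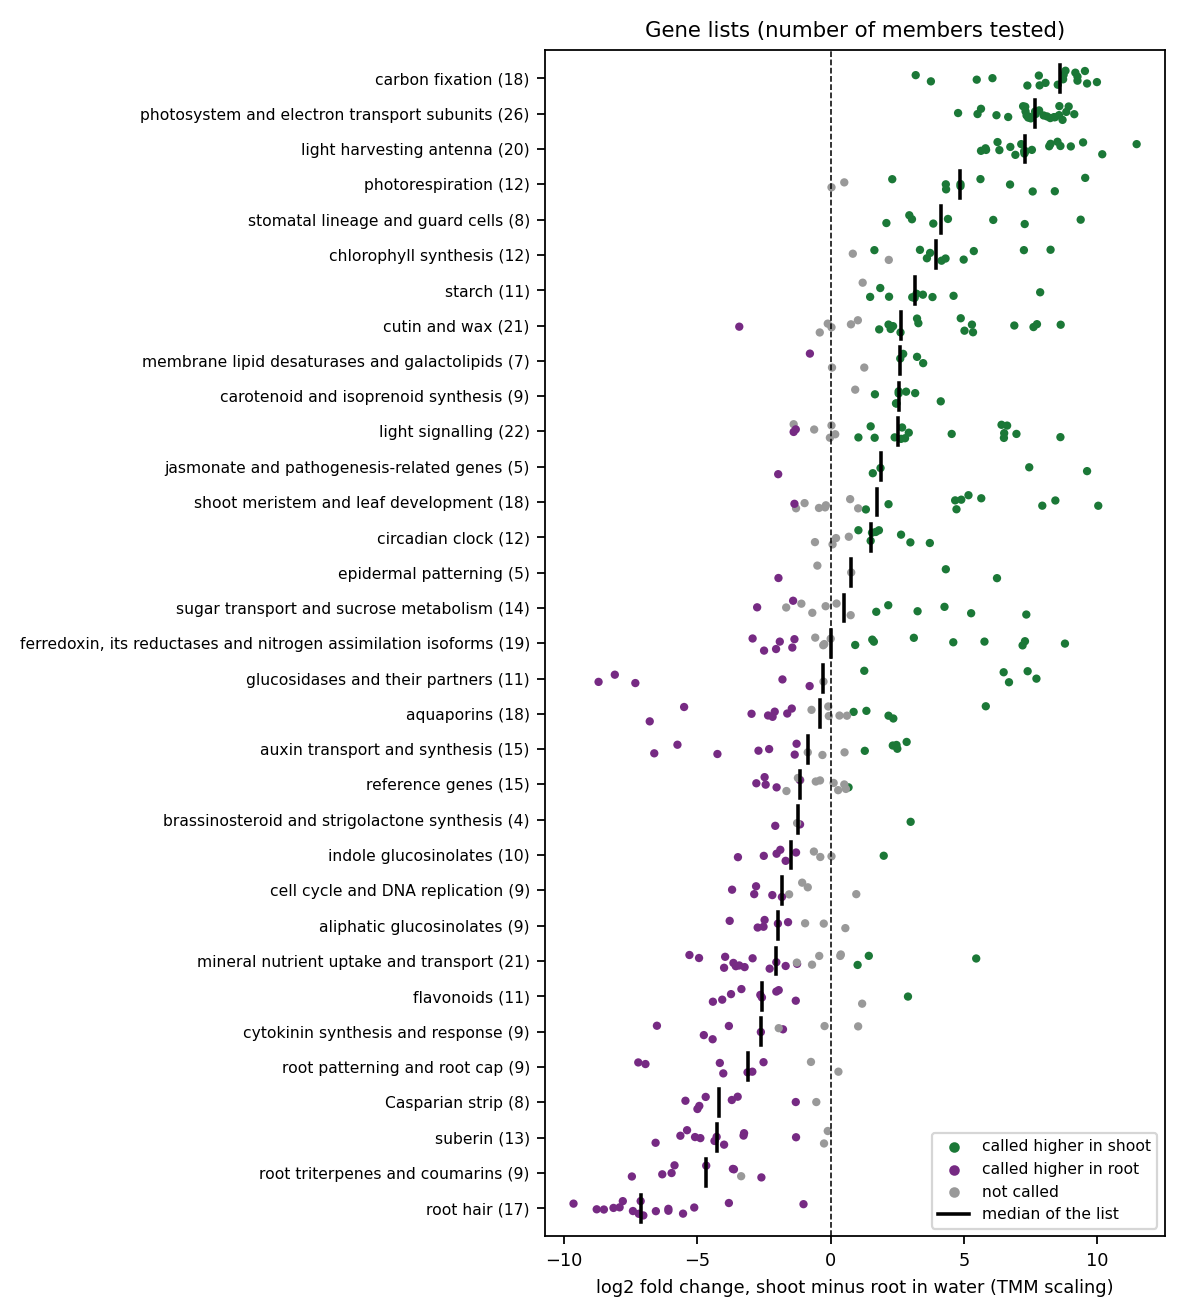
Log2 difference (shoot minus root in water, TMM scaling) of each tested member of the 33 gene lists, with the number tested in brackets. Points are genes, coloured by the call, and black bars are list medians. Photosynthesis lists lie at the right with medians of 7.29 to 8.62, root hair genes at the left with -7.13, and several lists between them hold members called in both directions.

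Root hair genes had the lowest median of the 33 lists in water. All 17 root hair genes tested were higher in roots, 16 of them held, against 10% of all genes. Their median of -7.13 contains fitted values of genes with no shoot count, and with those genes at their bounds it was -5.14. RHS13 (AT4G02270), a root hair wall protein, stood at 39.1, 69.0 and 34.3 in roots with 0 counts in shoots and was at least 71.7-fold higher. COBL9 (AT5G49270), needed for hairs to elongate, stood at 17.4, 16.2 and 16.0 and was at least 27.7-fold higher. LRX1 (AT1G12040) and PRP1 (AT1G54970), wall proteins of hairs, were at least 46.7-fold and 35.2-fold higher. PRP3 (AT3G62680) stood at 221, 111 and 153 in roots and at 0, 1.79 and 0.353 in shoots, a ratio of 289 (98.7 to 1403). The regulator RHD6 (AT1G66470), which starts hair formation, and RSL2 (AT4G33880) below it were at least 23.0-fold and 17.6-fold higher. RHD4 (AT3G51460), a phosphoinositide phosphatase, was the member that was not held, with 68.2 ± 10.8 in roots and 33.2 ± 11.3 in shoots (-1.02 ± 0.35). RHD4 was not called without shoot replicate 1 (-0.76).

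Wall proteins and a root beta-glucosidase led the genes with no count in shoots. BGLU22 (AT1G66280), a relative of the main beta-glucosidase of root endoplasmic reticulum bodies, stood at 60.8, 88.7 and 47.3 in roots and was at least 102-fold higher. HRGP1 (AT3G54590), a hydroxyproline-rich wall protein, stood at 85.4, 38.7 and 52.3 and was at least 106-fold higher. The extensins EXT10 (AT5G06640) and EXT12 (AT4G13390) and the extensin-like AT1G23720, AT5G06630 and AT3G09925 were at least 58.7-fold to 82.1-fold higher. These genes have repeated and closely similar sequences, so their counts are uncertain as single genes. Among genes at least 4-fold apart, those with the most root counts besides ATMG00020 were GRP9 (AT2G05440), a glycine-rich protein, the peroxidase AT2G37130, the vacuolar aquaporin GAMMA-TIP (AT2G36830), the copper protein UCC2 (AT2G44790) and the mitochondria-encoded ATMG01390. UCC2 stood at 2428, 1976 and 2061 in roots and at 232, 172 and 159 in shoots (-3.52 ± 0.41). GRP9 varied more, with 2194, 4281 and 3096 in roots and 879.5, 295 and 255 in shoots (-2.75 ± 0.38). The root libraries lay above the shoot libraries in both.

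The endodermal barriers were root programmes. Of 8 Casparian strip genes tested, 7 were higher in roots, 6 of them held, with a median of -4.20, or -3.60 with a gene absent from shoots at its bound. CASP1 (AT2G36100), a membrane scaffold of the strip, stood at 552, 472 and 488 in roots and at 10.4, 20.5 and 15.9 in shoots (-5.00 ± 0.35, adjusted p = 5.2e-11). ESB1 (AT2G28670), which helps to assemble the strip, stood at 343, 212 and 267 against 7.57, 8.93 and 9.87 (-4.93 ± 0.34). Root and shoot libraries were far apart in both genes. PRX64 (AT5G42180), a peroxidase that polymerises lignin there, differed by -4.69 ± 0.45, and CASP4 (AT5G06200) was at least 4.06-fold higher. SCR (AT3G54220), which specifies the endodermis and also acts in the shoot bundle sheath, stood at 7.69 ± 1.54 in roots and 4.90 ± 2.31 in shoots and was not called. Of 13 suberin genes, 11 were higher in roots, 10 of them held, with a median of -4.28, or -4.00 with bounds. CYP86A1 (AT5G58860), the fatty acid hydroxylase of suberin, stood at 244, 196 and 243 in roots and at 10.4, 8.93 and 13 in shoots (-4.36 ± 0.37). The hydroxylase CYP86B1 (AT5G23190) was at least 8.57-fold higher. The elongase KCS2 (AT1G04220), the feruloyl transferase ASFT (AT5G41040) and the exporter ABCG6 (AT5G13580) had ratios of 62.3 (10.9 to 2486), 52.1 (9.08 to 2085) and 39.9 (10.8 to 334).

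Genes of the root tip were weak in counts, and those called were all higher in roots. A sparse gene can pass the filter through libraries of a single organ, so this direction is partly set by the filter. Of 17 patterning and root cap genes in the table, 9 passed the filter, of which 7 were higher in roots, 5 of them held, with a median of -3.12. SMB (AT1G79580), a NAC factor that matures the root cap, stood at 9.20, 7.74 and 4.76 in roots with 0 counts in shoots and was at least 12.0-fold higher. Its relative BRN2 (AT4G10350) was at least 15.1-fold higher. The stem cell factor PLT1 (AT3G20840) had 37 counts in roots and 1 in shoots, a ratio of 25.0 (4.22 to 1015), and LBD16 (AT2G42430), which acts when lateral roots start, had 79 and 3, a ratio of 17.8 (5.88 to 88.3). WOX5 (AT3G11260), a marker of the quiescent centre, stood at 3.74 ± 0.599 in roots and 2.00 ± 1.74 in shoots and was not called. Of 20 cell cycle genes 9 passed the filter, and 5 were higher in roots, 2 of them held: the cyclin CYCB1;1 (AT4G37490), with 39 counts in roots and 2 in shoots, and the replication clamp PCNA1 (AT1G07370, -2.87 ± 0.87). Without shoot replicate 3 the difference of PCNA1 was -1.87 and not called. At these depths the other 11 genes were too sparse to test.

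Uptake and transport of minerals leaned to roots. Of 21 genes tested, 13 were higher in roots and 3 in shoots, 8 and 1 of them held, with a median of -2.04. PHT1;1 (AT5G43350), a phosphate importer, stood at 519, 325 and 360.3 in roots and at 25.6, 24.1 and 25.4 in shoots (-4.00 ± 0.39). NRT1.5 (AT1G32450), which loads nitrate into the xylem, stood at 35.5, 62.7 and 36.0 against 1.89, 1.79 and 0.353 (-5.30 ± 0.58). The potassium importer HAK5 (AT4G13420) and the ammonium importer AMT1;2 (AT1G64780) differed by -4.94 ± 0.71 and -3.96 ± 0.44. In all 4 genes the organs did not overlap. NRT1.7 (AT1G69870), which loads nitrate into the phloem of leaves, was the held exception, with 241, 308 and 266 in shoots and 5.26, 6.34 and 6.80 in roots (5.46 ± 0.40). The ammonium transporters AMT2 (AT2G38290, 1.43 ± 0.40) and AMT1;1 (AT4G13510, 1.01 ± 0.39) were also higher in shoots, without a call under library size alone. Without shoot replicate 3 AMT2 was not called (0.90), and AMT1;1 was not called without root replicate 2 or 3 or shoot replicate 2 or 3, at 0.78 to 1.00, nor with median-ratio size factors or DESeq2 (0.83 in both). NRT1.1 (AT1G12110), a nitrate transporter and sensor, stood at 602 ± 138 in shoots and 469.6 ± 126 in roots. It was not called, but was higher in roots with library size alone (-0.71) and higher in shoots with reference gene scaling (1.44).

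Specialised metabolism differed by branch. All 8 called genes of root triterpenes and coumarins, of 9 tested, were higher in roots and held, against 10% of all genes. Of the 9 tested, 5 had no count in shoots, and only 4 passed the filter in the 6 water libraries alone. A sparse gene can pass through libraries of a single organ, so the direction of this list is partly set by the filter. Its median of -4.67 was -2.98 with genes absent from shoots at their bounds. THAD (AT5G47990) and THAS1 (AT5G48010) of the thalianol cluster were at least 17.4-fold and 7.90-fold higher, and CYP71A16 (AT5G42590) of the marneral cluster at least 6.32-fold. F6'H1 (AT3G13610), which makes the coumarin scopoletin, stood at 43.4, 94.3 and 68.3 in roots and at 4.73, 0.893 and 2.47 in shoots (-4.67 ± 0.67). Of 11 flavonoid genes, 9 were higher in roots and 1 in shoots, 6 and 1 of them held, with a median of -2.58. TT4 (AT5G13930), the chalcone synthase that opens the pathway, stood at 2288, 1596 and 1957 in roots and at 100.4, 124 and 124 in shoots (-4.07 ± 0.33, adjusted p = 3.7e-10). MYB12 (AT2G47460), its activator, differed by -4.42 ± 0.61, F3H (AT3G51240) by -3.74 ± 0.37 and the flavonol synthase FLS1 (AT5G08640) by -3.35 ± 0.34. UGT78D1 (AT1G30530), which adds rhamnose to flavonols, stood at 55.8 ± 7.67 in shoots against 7.21 ± 2.71 in roots (2.90 ± 0.27).

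Glucosinolates, the mustard oil precursors, had more calls toward roots than toward shoots in water, and a part of these calls held. Of all genes tested, 25.1% were called higher in roots and 10% were held there. Of 9 aliphatic genes 6 were higher in roots, 3 of them held, and of 10 indole genes 6 were higher in roots and 1 in shoots, 2 and 0 of them held. After 3 h of SHAM the medians were -0.14 and 0.26. The held genes were BAT5 (AT4G12030), CYP79F2 (AT1G16400, -2.74 ± 0.51) and BCAT4 (AT3G19710, -2.52 ± 0.43) of the aliphatic branch and CYP81F4 (AT4G37410, -3.48 ± 0.36) and IGMT1 (AT1G21100, -2.51 ± 0.41) of the indole branch. BAT5, a plastid carrier, had 74 counts in roots and 3 in shoots. MYB51 (AT1G18570), a regulator of the indole branch, was higher in shoots (1.99 ± 0.64), but not with library size alone, without root replicate 1 (1.57) or without shoot replicate 3 (1.78). The enzymes that break glucosinolates down divided by isoform. TGG1 (AT5G26000) and TGG2 (AT5G25980), myrosinases of leaves, had 441 and 183 counts in shoots and 3 and 1 in roots, ratios of 217 (73.8 to 1057) and 270.4 (47.9 to 10737). TGG4 (AT1G47600) and TGG5 (AT1G51470), myrosinases of roots, had 172 and 106 counts in roots and 0 in shoots, and were at least 38.8-fold and 23.9-fold higher. The beta-glucosidases BGLU18 (AT1G52400) and BGLU21 (AT1G66270) of endoplasmic reticulum bodies were likewise opposed, with 28.9 ± 9.62 in shoots and 0.223 ± 0.193 in roots for BGLU18, and 0.316 ± 0.547 and 43.0 ± 23.9 for BGLU21. In this list of 11 genes 5 were higher in shoots and 5 in roots, 4 and 3 of them held. Each pair holds close copies, so counts within a pair are uncertain.

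Ferredoxins, their reductases and the enzymes of nitrogen assimilation were read as isoforms. Of 19 genes, 9 were higher in shoots and 6 in roots, 6 and 2 of them held, and the median of 0.00 describes neither side. FED A (AT1G60950), known as the main leaf ferredoxin and also called FD2, stood at 945, 1277 and 1609 in shoots and at 24.6, 21.1 and 24.1 in roots (5.77 ± 0.55). FD1 (AT1G10960), known as the minor leaf form, stood at 1599 ± 69.6 against 184 ± 22.3 (3.12 ± 0.31). Shoot levels of FED A lay mostly below the FD1 mean, so the names main and minor do not describe the transcript levels here. FD3 (AT2G27510), the root form, stood at 11.4, 11.6 and 20.1 in shoots and at 105, 124 and 113 in roots (-2.93 ± 0.48). The leaf and the root forms thus lay on opposite sides without overlap of libraries. In roots FD1 still had more counts than FD3, 1396 against 829 over the 3 libraries, in an assay that counts 3' ends and not gene length.

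The reductases repeated this order. FNR1 (AT5G66190) and FNR2 (AT1G20020), which pass electrons from ferredoxin to NADP in leaves, were higher in shoots. FNR1 stood at 1497, 1742 and 1907 against 12.5, 6.34 and 12.9 (7.29 ± 0.51), and FNR2 had 290 counts in shoots and 3 in roots, a ratio of 143 (48.4 to 697). RFNR2 (AT1G30510), a root form that runs the reaction in reverse, stood at 57.2, 60.5 and 68.3 in roots and at 11.4, 8.03 and 12.7 in shoots (-2.50 ± 0.39). RFNR1 (AT4G05390) was lower in counts and also higher in roots (-1.36 ± 0.52), but not with reference gene scaling. Its call was also lost without root replicate 1 or 3 or any shoot replicate, at -1.14 to -1.67, with DESeq2 (-1.58) and without the filter on low counts (-1.29). The ferredoxin-dependent enzymes themselves, the nitrite reductase NIR1 (AT2G15620) at 139 ± 31.1 in shoots and 164 ± 37.4 in roots and the sulfite reductase SIR (AT5G04590) at 88.0 ± 7.05 and 107 ± 22.3, were not called. Their libraries overlapped, and both were called higher in roots with library size alone.

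Glutamate synthases and glutamine synthetases also had members on either side. GLU1 (AT5G04140), the leaf glutamate synthase, stood at 215, 255 and 342 in shoots and at 0.328, 1.41 and 0.340 in roots (8.79 ± 0.88). Its relative GLU2 (AT2G41220) stood at 3.21 ± 0.556 in shoots and 13.2 ± 4.17 in roots (-2.05 ± 0.49), and the NADH-dependent GLT1 (AT5G53460) at 53.4 ± 21.1 and 147 ± 32.1 (-1.44 ± 0.44). Neither call was kept with reference gene scaling. GS2 (AT5G35630), the chloroplast glutamine synthetase, stood at 4507, 4534 and 4330.0 in shoots and at 182, 155 and 212 in roots (4.60 ± 0.32). Of the cytosolic forms GSKB6 (AT3G17820), also called GLN1;3, was higher in roots (-1.91 ± 0.25), without a call under reference gene scaling. GSR_1 (AT5G37600) was higher in shoots (0.92 ± 0.35) and GSR2 (AT1G66200) stood at 428 ± 40.7 in shoots and 428 ± 82.5 in roots (95% interval of the log2 difference -0.50 to 0.51). GLN1;4 (AT5G16570) was not called. Both nitrate reductases, NIA1 (AT1G77760, 1.56 ± 0.39) and NIA2 (AT1G37130, 1.62 ± 0.35), were higher in shoots, though not with library size alone, which also removed the call of GSR_1. GSR_1 was not called either without any 1 root replicate or without shoot replicate 2 or 3, at 0.72 to 0.91, nor with median-ratio size factors or DESeq2 (0.73 in both).

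**Figure D4:**
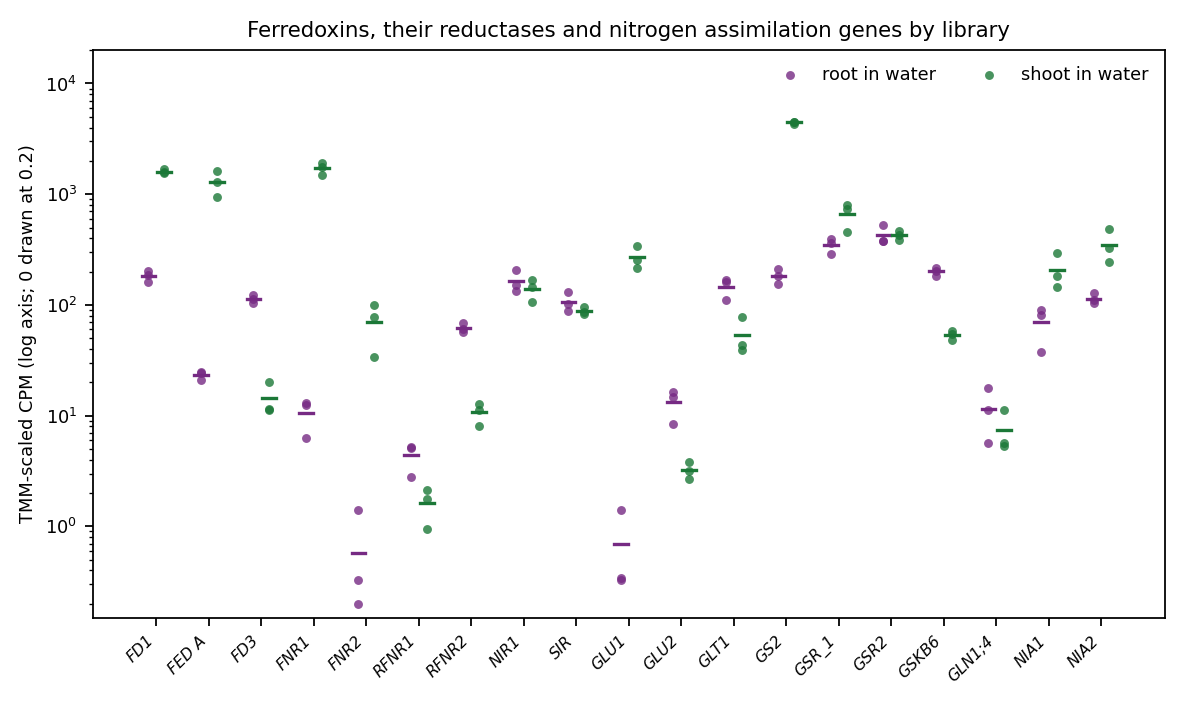
Level of the 19 genes for ferredoxins, their reductases and nitrogen assimilation in each library (TMM-scaled CPM, log axis), with roots in purple, shoots in green and bars at the means of 3 libraries. Values of 0 are drawn at 0.2. FED A, FNR1, GLU1 and GS2 lie higher in shoots, and FD3, RFNR2, GLU2 and GSKB6 higher in roots.

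Aquaporins were abundant in both organs and divided by member. They took 2.24 ± 0.341% of counts in roots and 0.888 ± 0.0258% in shoots. These are shares of library totals, in which the reference genes also stood higher in roots, at 0.568 ± 0.0358% against 0.274 ± 0.0259%. The aquaporin shares by themselves are therefore not read as enrichment in roots. Of 18 genes, 8 were higher in roots and 5 in shoots, 5 and 3 of them held. TIP2;3 (AT5G47450), of the vacuolar membrane, stood at 290.4, 208 and 148 in roots and at 0, 5.36 and 1.06 in shoots (-6.79 ± 0.56), and the plasma membrane form PIP2;4 (AT5G60660) differed by -5.50 ± 0.37. TIP2;2 (AT4G17340) stood at 1834 ± 239 in roots and 234 ± 56.1 in shoots (-2.97 ± 0.27). PIP2E (AT2G39010), a plasma membrane form, stood at 713, 771 and 656 in shoots and at 6.57, 18.3 and 13.9 in roots (5.82 ± 0.57). PIP2;5 (AT3G54820, 2.35 ± 0.56) and the vacuolar DELTA-TIP (AT3G16240, 2.17 ± 0.40) were the other held members higher in shoots. GAMMA-TIP, at 2366 ± 388 in roots and 551 ± 153 in shoots (-2.10 ± 0.33), was not called with reference gene scaling. The list median of -0.40 became 0.53 with that scaling.

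Hormone genes were sorted by member too. Of 15 auxin genes 7 were higher in roots and 5 in shoots, 4 of them held each way. EIR1 (AT5G57090), the efflux carrier PIN2 of root gravitropism, stood at 81.1, 61.3 and 56.8 in roots and at 0.947, 0.893 and 1.41 in shoots (-5.75 ± 0.59). YUC9 (AT1G04180), an auxin synthesis enzyme, was at least 9.25-fold higher in roots, while YUC3 (AT1G04610) had 40 counts in roots and 1 in shoots. The importer LAX3 (AT1G77690) was higher in roots (-2.71 ± 0.31). LAX1 (AT5G01240, 2.85 ± 0.46), the carriers PIN7 (AT1G23080, 2.50 ± 0.37) and PIN4 (AT2G01420, 2.47 ± 0.35) and the synthesis enzyme TAA1 (AT1G70560, 2.33 ± 0.29) were higher in shoots and held. The list median of -0.86 became 0.27 with reference gene scaling. Of 9 cytokinin genes, 6 were higher in roots and 0 in shoots, 4 of them held. CYP735A1 (AT5G38450), which makes trans-zeatin, was at least 9.70-fold higher in roots. ABCG14 (AT1G31770), which carries cytokinin toward the shoot, had 91 counts in roots and 2 in shoots, a ratio of 30.8 (8.28 to 258), and the synthesis enzyme IPT5 (AT5G19040) differed by -3.82 ± 0.54. In brassinosteroid and strigolactone synthesis 1 of 4 genes tested was higher in shoots and 2 in roots. CPD (AT5G05690) stood at 285 ± 45.5 in shoots and 35.2 ± 9.81 in roots (3.00 ± 0.28) and was the held member.

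Sugar handling had a median near 0 and members at both ends. Of 14 genes tested, 6 were higher in shoots and 2 in roots, 4 and 1 of them held. APE2 (AT5G46110), the triose phosphate exporter of chloroplasts, stood at 369 ± 94.8 in shoots and 2.02 ± 1.35 in roots (7.34 ± 0.87). The cytosolic phosphatase FBP (AT1G43670, 5.27 ± 0.41) and the sucrose phosphate synthase SPS4F (AT4G10120, 4.27 ± 0.53) followed. SWEET11 (AT3G48740), which releases sucrose for phloem loading, stood at 127, 134 and 169.9 in shoots and at 20.4, 20.4 and 5.10 in roots (3.26 ± 0.44). CUE1 (AT5G33320), which brings phosphoenolpyruvate into plastids, was higher in roots (-2.76 ± 0.62), as was the glucose phosphate carrier GPT1 (AT5G54800, -1.41 ± 0.23), whose call was lost with reference gene scaling. The list median of 0.49 became -0.57 with library size alone. Of 5 tested genes of jasmonate and pathogen response 4 were higher in shoots, 3 of them held, and 1 in roots. LOX2 (AT3G45140), a chloroplast lipoxygenase, had 264 counts in shoots and 0 in roots and was at least 130.0-fold higher. PR5 (AT1G75040) was at least 25.1-fold higher in shoots, and AOS (AT5G42650) differed by 1.87 ± 0.25. VSP1 (AT5G24780), a storage protein induced by jasmonate, was higher in roots (-1.97 ± 0.50), without a call under reference gene scaling.

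Families were taken from the annotation's product text and are read against all genes tested, of which 25.1% were higher in each organ, with 14.5% held in shoots and 10% held in roots. Of 52 genes annotated as class III peroxidases, 41 were higher in roots and 4 in shoots, 35 and 3 of them held, with a median of -3.58. Xyloglucan-modifying enzymes had 15 of 23 higher in roots and 5 in shoots, 11 and 4 of them held, and arabinogalactan proteins 22 of 40 and 4, 11 and 2 of them held. NAC factors had 14 of 26 higher in roots and 2 in shoots, 4 and 2 of them held, and WRKY factors 17 of 40 and 9, 7 and 2 of them held. Cytochromes P450 were called in both directions, with 28 of 83 higher in shoots and 35 in roots, 21 and 24 of them held, as were UDP-glycosyltransferases, with 31 of 83 and 32, 21 and 15 of them held. Genes with pentatricopeptide repeats, many of which process organelle RNA, had 16 of 37 higher in shoots and 2 in roots, 12 and 0 of them held. Their median of 0.52 became -0.53 with library size alone. Of 62 proteins annotated to thylakoid or chloroplast, 45 were higher in shoots and 7 in roots, 37 and 0 of them held. Of 278 genes for cytosolic ribosomal proteins, 41 were higher in shoots and 116 in roots, 32 and 31 of them held, and the median of -0.76 became 0.34 with reference gene scaling. Of 70 histone genes 49 were not called. Lipid transfer proteins had 22 of 55 higher in shoots and 25 in roots, 20 and 17 of them held.

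Genes used as references in quantitative PCR had calls as well. Of 15, 5 were higher in roots and 1 in shoots, 4 and 0 of them held, where 25.1% of all genes tested were called each way. The median of the list was -1.14. The reference gene scaling takes its size factors from these genes, and their median was then -0.05. ACT2 (AT3G18780) stood at 222, 353 and 177 in roots and at 109.8, 51.8 and 25.7 in shoots (-2.03 ± 0.47). Roots and shoots did not overlap, but the shoot libraries differed among themselves by several fold. ACT7 (AT5G09810, -2.79 ± 0.49), ACT8 (AT1G49240, -2.48 ± 0.43) and YLS8 (AT5G08290, -2.44 ± 0.68) were the other held members, and GAPC1 (AT3G04120, -1.16 ± 0.23) was called with TMM but not with reference gene scaling. UBQ10 (AT4G05320), a polyubiquitin, was higher in shoots (0.67 ± 0.27, adjusted p = 0.0434), at 2636 ± 158 against 1656 ± 125, but not with library size alone (-0.40) or median-ratio scaling. Leaving out any 1 of the 6 water libraries also removed the call of UBQ10, at 0.53 to 0.72. TIP41L (AT4G34270, 0.11 ± 0.27), SAND (AT2G28390, 0.51 ± 0.40), AT2G32170 (0.28 ± 0.43) and AT4G26410 (0.57 ± 0.25) were not called. Also not called were GAPC2 (AT1G13440, -0.40 ± 0.35), UBC9 (AT4G27960, -0.56 ± 0.73), PP2AA3 (AT1G13320, -1.14 ± 0.77), UBC21 (AT5G25760, -1.23 ± 0.66) and CAC (AT5G46630, -1.66 ± 0.71).

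Levels that could be bounded within 0.5 on the log2 scale by their 95% interval were rare, with 16 such genes of 11704. Those with the most counts were AT4G34670, a ribosomal protein S3a (-0.02 ± 0.22), AT5G52840, annotated as an NADH-ubiquinone oxidoreductase subunit (0.01 ± 0.24), the initiation factor gene EIF3G1 (AT3G11400, 0.01 ± 0.20), the calcium-binding AT1G12310 (0.00 ± 0.22) and the hydrolase AT3G23600 (-0.01 ± 0.23). EIF3G1 stood at 439, 399 and 373 in shoots and at 401, 353 and 448 in roots, with libraries interleaved. These bounds hold for TMM scaling, since library size alone called all 5 genes higher in roots, at -1.06 to -1.09.

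The SHAM libraries gave the organ difference in other plants, under a treatment. Of the 2941 genes higher in shoots in water, 66.1% were also higher in shoots after 1 h of SHAM, 72.2% after 2 h and 74.9% after 3 h, where 20, 22.2 and 22.5% of all genes tested were so called. These shared genes made up 83, 81.8 and 83.5% of the SHAM calls. Of the 2934 genes higher in roots in water, 50.7, 64.2 and 67.1% were higher in roots after SHAM, where 19.0, 24.5 and 23.8% of all genes were. They made up 66.9, 65.7 and 70.6% of the SHAM calls. The organ difference after SHAM minus that in water was itself called in 5.93, 3.34 and 1.73% of the genes tested after 1, 2 and 3 h. All water libraries are labelled 1 h, so at 2 and 3 h SHAM and time cannot be told apart. At all 3 times 1597 of the shoot genes (54.3%) and 1148 of the root genes (39.1%) were called as in water. The 1 h values include the root library with 4.44% of counts in photosynthesis genes. Without it the shares of the shoot genes were 65.1, 75.3 and 77.7% and those of the root genes 44.9, 57.7 and 61.5%. The antenna median was 7.29 in water and 5.82, 7.47 and 6.90 after 1, 2 and 3 h of SHAM, and the root hair median was -7.13 in water and -4.98, -4.99 and -4.86 after SHAM. The water value contains fitted values of 8 genes with no shoot count, and was -5.14 with these at their bounds, so no change is read from it. Casparian strip genes stood at -4.20 in water and -4.77, -5.31 and -5.03 after SHAM.

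**Figure D5:**
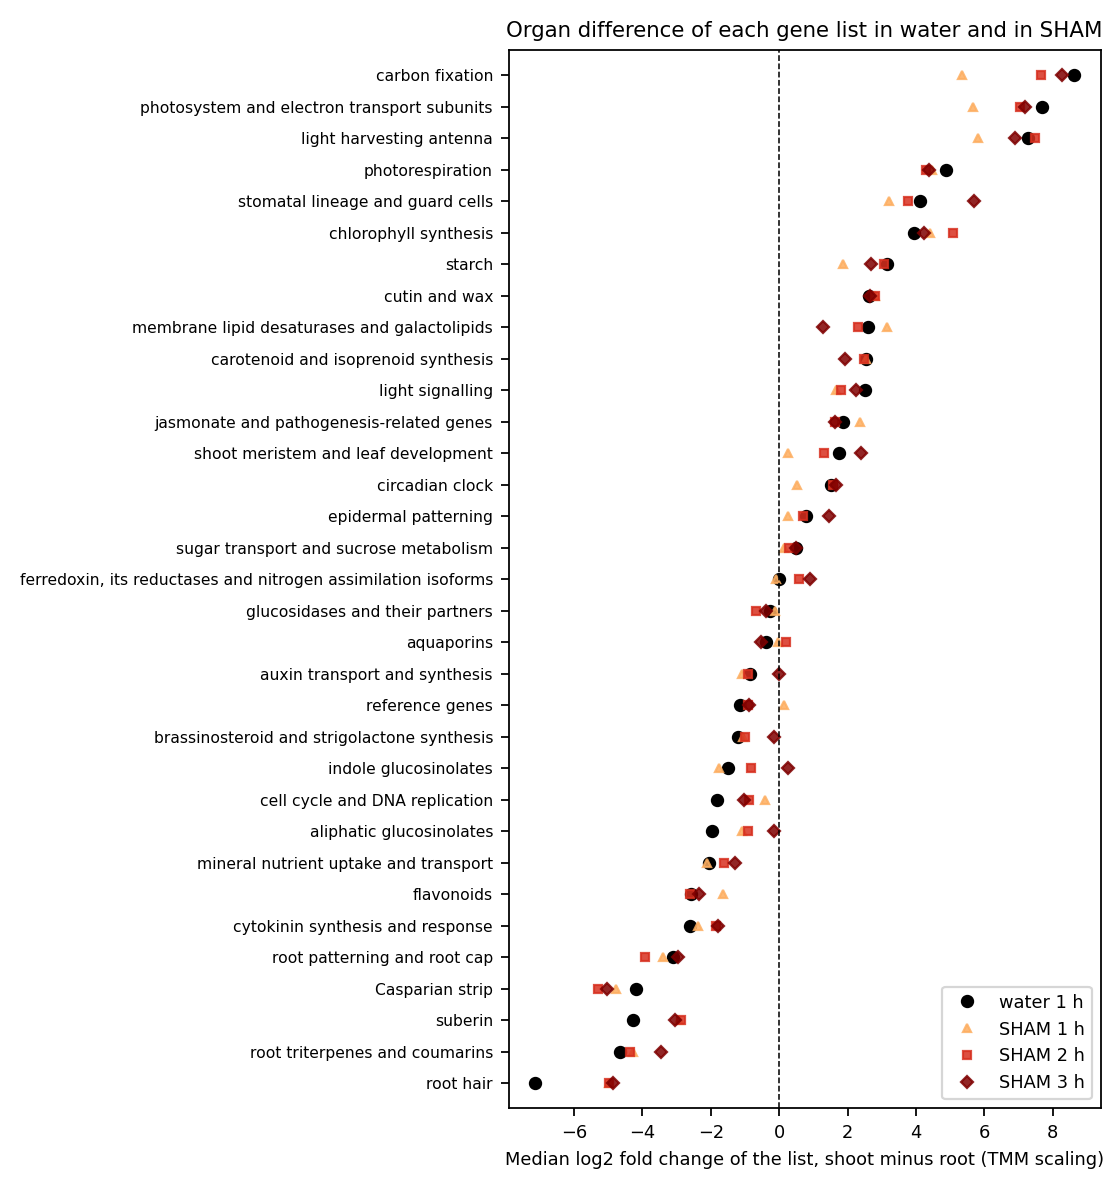
Median log2 difference (shoot minus root, TMM scaling) of the 33 gene lists in water (black) and after 1, 2 and 3 h of SHAM (triangles, squares and diamonds), in the order of the water values. The antenna, photosystem and carbon fixation lists lie highest in each of the 4 comparisons. Root hair genes lie lowest in water and after 1 h of SHAM, and Casparian strip genes after 2 and 3 h.

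The authors' deposited table for the same comparison, with its sign turned, listed 4921 genes as changed, 2313 higher in shoots and 2608 higher in roots. The authors' genes were taken at an absolute log2 fold change of at least 1 and a mean normalized signal of at least 5, while the calls here had no such cuts. Of these genes 4713 were also called here, which was 95.8% of the authors' list and 80.2% of the calls here. Both results rest on the same counts and are not independent. None of the 4713 had the opposite direction.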

How the data were processed

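MARS-seq libraries of 12 root and 12 shoot samples were held in 1 deposited table. Per the column names and the submitters' processing notes, the authors made raw counts per gene with bcl2fastq, cutadapt, STAR 2.4.2a and HTSeq. They also deposited a normalized signal (counts divided by a size factor per library), and DESeq2 log2 fold changes with p-values and adjusted p-values. Only the counts were tested here, and 24 further columns of per-sample values were not used. The genome build and any collapsing of molecular identifiers are not given in the sources used here.

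Groups followed the labels. Counts of the 24 libraries in 8 groups were fitted with edgeR 4.0.16 in R 4.3.3 by glmQLFit and glmQLFTest after filterByExpr (minimum count 10, minimum total 15) and TMM scaling. The filter can admit a sparse gene through libraries of a single organ, so calls in lists of sparse genes partly follow from it. The contrast was shoot minus root in water, with Benjamini-Hochberg adjusted p under 0.05. Levels are TMM-scaled CPM. Shares refer to library totals. A gene with 0 counts in an organ has its fold bounded at 3 counts over that organ's group, and a gene with 1 to 3 counts has a ratio with an exact 95% counting interval. These bounds and ratios hold for TMM scaling only. Library size alone moved the median log2 difference by -1.06 and reference gene scaling by 1.05. Counting intervals and bounds cover at most counting error and leave out the spread between replicates. They treat counts as independent molecules, which the counts need not be, so intervals can be too narrow and bounds too high. Each replicate pooled seedlings and is called biological, per the labels. Whether a root and a shoot library share seedlings is not given in the sources used here, and p-values measure only the spread between these samples. The fit was tested on simulated counts.

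Gene names came from RefSeq, where 16082 of 16183 loci matched. The 33 gene lists hold 566 members, of which 501 are in the table, and 26 families were taken from product text. The comparison, lists and members were chosen with earlier results of these data known. Genes were named by a rule on CPM of the library total. It took the 8 greatest differences each way among called genes without overlap at a mean of 10 CPM or more, the 6 highest levels per organ, 5 level genes, up to 4 members of each list with its exceptions, all ferredoxin list and reference genes, and the 5 highest genes absent from an organ. Other members named were chosen after their values were seen, as were genes that turned after SHAM. The authors' genes were those with adjusted p under 0.05, an absolute log2 fold change of at least 1 and a mean normalized signal of at least 5. Alternatives were other scalings, no filter on low counts, DESeq2 1.42.0, fewer libraries, a replicate block, stricter thresholds and nuclear counts as the denominator of shares. Scaling by reference genes, leaving out root SHAM 1 h replicate 1 and the block in the 6-library fit were chosen after seeing the data.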

Additional observations from a re-analysis of the deposited data

Results flagged for a closer look

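In 7 genes the organ difference was called toward shoots in water and toward roots after 1, 2 and 3 h of SHAM. The difference of the differences (SHAM minus water, log2) was itself tested in the edgeR fit, where 5.93% of all genes passed at 1 h, 3.34% at 2 h and 1.73% at 3 h. The 7 genes were chosen by opposite calls in this same fit, so their tested differences are no independent support. These 3 comparisons share the 6 water libraries. All of these are labelled 1 h, so at 2 h and 3 h SHAM and time cannot be told apart. AT1G07985, an uncharacterized gene, stood at 8.52, 13.4 and 10.6 TMM-scaled CPM in shoots and at 2.96, 3.52 and 2.04 in roots (1.96 ± 0.41), without overlap. Its difference moved by -3.71 ± 0.55, -4.43 ± 0.53 and -4.84 ± 0.53 (adjusted p = 3.5e-04, 3.1e-05 and 1.4e-05), and it alone of the 7 was called in water under all 4 scalings.

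GSTU19 (AT1G78380), a glutathione transferase, stood at 387, 470.4 and 427 in shoots and at 173, 141 and 201 in roots (1.32 ± 0.29), and after 1 h of SHAM the difference was -2.10 ± 0.41 away from that in water. WRKY29 (AT4G23550), a transcription factor, moved by -2.26 ± 0.33 from 0.72 ± 0.24. The acyltransferase-like AT5G07870 moved by -2.82 ± 0.34 from 1.2 ± 0.25, the protease-like AT5G48430 by -4.02 ± 0.71 from 1.19 ± 0.49, and the uncharacterized AT5G14730 by -3.05 ± 0.39 from 1.01 ± 0.28. The small heat shock protein AT2G29500 moved by -1.96 ± 0.52 from 1.01 ± 0.39, its water libraries overlapped, and at 3 h its adjusted p was 0.0511. Apart from AT1G07985, library size alone called none of these genes in water. In edgeR fits that left out a library, the water call of AT2G29500 was lost without root replicate 1 or 2, shoot replicate 1 or 2 or root SHAM 1 h replicate 1 (0.63 to 0.98). The call of AT5G48430 was lost without root or shoot replicate 2 or 3 (0.71 to 1.21), and that of WRKY29 without replicate 3 of either organ (0.50 and 0.69). The call of AT5G14730 was lost without root replicate 1. Median-ratio size factors and DESeq2 also gave no call for AT2G29500 (0.85 and 0.83), AT5G48430 (0.99 and 0.98) and WRKY29 (0.52 and 0.53), and AT2G29500 was not called in the 6 water libraries alone (1.03). After SHAM the libraries of the organs did not overlap in any of the 7 at any time. The 1 h values include the root library with 4.44% of counts in photosynthesis lists, whose part in them was not tested.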

How the results depend on the processing

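The balance between organs depended on scaling. With library size alone 1694 genes were higher in shoots and 6371 in roots, and with reference gene size factors 4549 and 1173. The cause was not tested. Under the other alternatives the counts stayed within 1.5 times, including no filter (3410 and 3392), DESeq2 (2857 and 3702) and the 6 water libraries alone (2822 and 2876). Leaving out each water library gave 2617 to 2960 genes higher in shoots and 2362 to 3100 in roots. Correlations of deviations between equal replicate numbers of the organs were -0.272, 0.074 and 0.274, and those between unequal numbers ran from -0.435 to 0.377. With so few libraries these values cannot decide whether samples were paired. A replicate block gave 2883 and 2891 genes. Of the genes named here, FAD3 (-0.78) and AT5G48430 (1.19) were not called with the block and AT4G26410 (0.59) was.

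List medians turned with library size alone for epidermal patterning (-0.30) and sugar transport (-0.57), and with reference gene scaling for glucosidases (0.80), aquaporins (0.53) and auxin (0.27). Single genes turned with library size alone were AMT1;1 (-0.06), GSR_1 (-0.15), UBQ10 (-0.40), NRT1.1 (-0.71), PHYB (-0.88), TIP41L (-0.97), CAT2 (-1.04), EIF3G1 (-1.06), AT5G52840 (-1.06), AT1G12310 (-1.07), GSR2 (-1.07), AT2G29500 (-0.04), AT5G14730 (-0.06) and WRKY29 (-0.35), and with reference genes RHD4 (0.11) and FAD3 (0.26). Of 190 called genes that are named here, 172 kept the call in each fit that tested them, other than reference gene scaling, the fit without the SHAM library and the blocked 6-library fit. Over all alternatives 42.1 to 73.1, 56.5 to 78.2 and 69.6 to 82.3% of the genes higher in shoots were so after 1, 2 and 3 h of SHAM, and 43.2 to 68.4, 54.9 to 69.5 and 59.0 to 69.7% of those higher in roots.

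At 862731 to 3622300 counts a library, genes with few counts in both organs could not be compared. Promoter motifs, with their 250-base window, and protein identities were not run, since no promoter or protein table was used here.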
